A study of Homo sapiens with 3 samples.

Results

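The protein arginine methyltransferases were examined as a family of 8 genes: PRMT1, PRMT2, PRMT3, PRMT5, PRMT6, PRMT7, CARM1 and PRMT9. They were taken with every probe set that names a single gene, which gave 17 probe sets out of 41091 on the array and 8 genes out of 19775. The family was chosen from the array intensities themselves, because PRMT6 stood out in the same comparison with the control, so its ratios are a description and carry no test. The cells were UM-UC-3, an established human bladder cancer line, and had received 75 nM of a negative control siRNA, of DANCR siRNA1 or of DANCR siRNA2 with a lipid reagent. DANCR is a long noncoding RNA, and the series was designed to find genes whose expression differed with both siRNAs at 48 h. Each of the 3 groups was 1 Affymetrix array of biotin-labelled RNA, so no value has a replicate, a standard deviation or a p-value. Where 3 intensities are given below without further words, they are in the order control, siRNA1 and siRNA2.

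Arginine methyltransferases move a methyl group from S-adenosylmethionine onto arginine side chains of histones, RNA-binding proteins and splicing factors. Type I enzymes (PRMT1, PRMT2, PRMT3, CARM1 and PRMT6) add a second methyl group to the same nitrogen, which makes asymmetric dimethylarginine, type II enzymes (PRMT5 and PRMT9) make the symmetric form, and the type III enzyme PRMT7 stops at monomethylarginine. PRMT6 is a nuclear enzyme known for asymmetric methylation of an arginine at the start of the histone H3 tail, a mark that hinders binding of WDR5 and so opposes methylation of a nearby lysine.

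The siRNAs are shown because the PRMT6 values below come from 2 agents of different sequence, both labelled as siRNAs to DANCR. The label field for their target positions refers to WDR5, not DANCR, so the transcript meant there is not settled, and the sequences were not searched against PRMT6 or other transcripts here. They are as given in the labels, 5′ to 3′, with the terminal TT in capitals.
Control siRNA: uucuccgaacgugucacguTT
DANCR siRNA1: gcguacuaacuuguagcaaTT
DANCR siRNA2: gagcuagagcagugacaauTT
The intensity of DANCR itself was 671, 116 and 126, lower with both agents.

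The upstream sequence of PRMT6 is shown because PRMT6 was the member that differed most from the control. It is the 250 bases before the RefSeq start site at chr1:107056424-107056673 (GRCh38.p14, plus strand), 5′ to 3′.
PRMT6: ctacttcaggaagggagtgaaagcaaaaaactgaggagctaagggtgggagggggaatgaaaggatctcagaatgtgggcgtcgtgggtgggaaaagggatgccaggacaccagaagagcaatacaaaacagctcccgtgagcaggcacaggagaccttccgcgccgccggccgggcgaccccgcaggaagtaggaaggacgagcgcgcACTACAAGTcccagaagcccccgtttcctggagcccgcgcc
The capitals mark a match to ACTACAANT, the first letters of a longer motif known for the factors ZNF143 and THAP11, which begins at position -41 from the start site. This motif was searched after the sequence had been read. Searched on both strands, it was in 1.32% of 35116 RefSeq windows of the same length, and among the 10 windows of the 8 members it was in that of PRMT6 only.

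The median GC content of the members' 10 windows was 67.2%, against 58.0% over all windows. PRMT6 was at 60.4%, and PRMT5, at 55.6%, lay below the median of all windows. The ratio of observed to expected CpG had a median of 0.95 in the members' windows and 0.56 in all windows, with PRMT6 at 0.72. The TATA box TATAAA was in none of the 10 windows and in 10.7% of all. The GC box GGGCGG was in 8 of the 10 and in 42.6% of all, and the windows of PRMT5 and PRMT6 lacked it. The CCAAT box (CCAAT) was in those of PRMT1 and PRMT5 and in 32.0% of all. The ATF4 element TGATGNAA (3.14% of all) and the cyclic AMP response element TGACGTCA (1.65%) were in none, and the EGR motif GCGTGGGCG (0.720%) was in a window of CARM1. All were searched on both strands, and a match is a description of letters, not of binding.

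Array-wide values frame the comparisons. Intensities are the authors' values on a linear scale, and the median of all of them, 10.5, served as a floor to which lower values were raised before ratios were taken. A gene was measured if at least 1 array lay above the floor, which held for 12436 genes and for all 8 members. The 3′/5′ ratio of ACTB, a measure of RNA and labelling quality, was 11.9, 11.8 and 14.4, and for GAPDH it was 1.25, 1.29 and 1.35. Among cell markers, VIM was at 5322, 4412 and 4861 and KRT18 at 1315, 711 and 1022. The uroplakins UPK1A, UPK1B, UPK2 and UPK3A, which define differentiated urothelium, were below the floor on all arrays, as were EPCAM and CDH1. GATA3 was at 20.2, 20.2 and 35.2. Among leukocyte markers, CD3E lay just above the floor (15.8, 14.9 and 14.9), and PTPRC and CD14 were below it. Of 3 endothelial markers, CDH5 was below the floor, PECAM1 was at 25.0, 19.9 and 22.6 and TIE1 at 30.9, 10.1 and 19.5. Whether such levels bear on the PRMT6 values was not tested.

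The intensity of PRMT6 was 23.6 on the control array, 80.5 on the DANCR siRNA1 array and 114 on the DANCR siRNA2 array. Both siRNA arrays lay well above the control array, and all 3 values were above the floor. That floor is the median of all intensities, not a limit of detection. The control value lay below their 70th percentile, 29.8. The ratios were 3.42-fold with siRNA1 and 4.85-fold with siRNA2, or 1.77 and 2.28 on the log2 scale. No other member was at least 2-fold from the control with either siRNA, in either direction, and 5.97% of all measured genes were. The count of members at least 2-fold higher with both siRNAs was therefore 1 of 8, where 0.716% of all measured genes met that rule, and the choice of the family already fixed this count. By log2 ratio PRMT6 ranked 13 among the 12436 measured genes with siRNA1 and 7 with siRNA2. By the smaller of its ratios it ranked 4, and the choice of the family favoured these ranks as well.

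**Figure D1:**
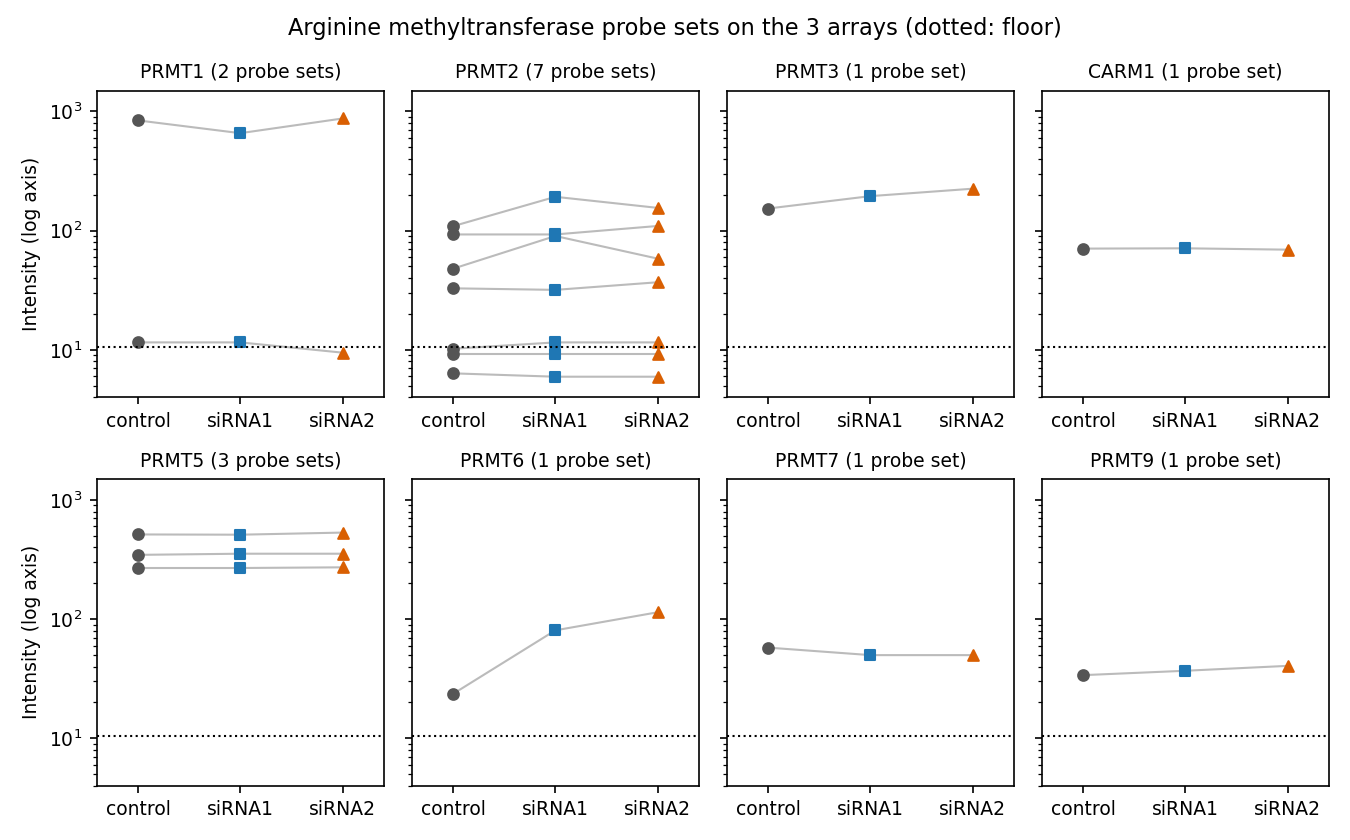
Intensity (log axis) of each of the 17 probe sets in the control, DANCR siRNA1 and DANCR siRNA2 arrays, 1 point per array, with grey lines joining the points of a probe set and a dotted line at the floor of 10.5. PRMT6 goes from 23.6 in the control to 80.5 and 114, and the 3 PRMT5 probe sets lie nearly flat.

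With 1 array per group, error between replicate arrays could not be measured. The spreads given here are between genes, or between probe sets of a gene, on the same arrays. Those between genes hold any response to the siRNAs as well as error. Among the 4438 genes whose control intensity lay within 2-fold of that of PRMT6 (11.8 to 47.1), the central 95% of log2 ratios ran from -0.64 to 0.98 with siRNA1 and from -0.51 to 1.03 with siRNA2. In that range 0.924% of genes were at least 2-fold higher with both. PRMT6 lay above these ranges in both cases, which follows from the choice of the family by these same ratios and tests nothing. At that intensity 8 genes, PRMT6 included, were as high with siRNA1 and 3 with siRNA2. For 5671 genes with 2 or more probe sets above the floor on all arrays, the brightest pair of a gene differed in log2 ratio by a median of 0.16 with either siRNA, and the 95th percentile was 0.79 with siRNA1 and 0.76 with siRNA2. PRMT6 has 1 probe set, so its value could not be set against a second one. Both of its ratios divide by the same control value of 23.6.

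Between the siRNA arrays, a comparison that leaves out the control array, the siRNA1 value of PRMT6 was 1.42-fold below the siRNA2 value (log2 difference -0.50). PRMT1 differed by -0.41 and PRMT2 by 0.31. None of the 8 members was 2-fold apart, where 3.92% of measured genes were. The 3′/5′ ratio of GAPDH had the same order over the arrays as PRMT6 (1.25, 1.29 and 1.35), and that of ACTB was highest on the siRNA2 array and near-equal on the others (11.9, 11.8 and 14.4). The part of RNA quality in the PRMT6 values was not tested.

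The other type I enzymes lay closer to the control. PRMT1, which makes most of the asymmetric dimethylarginine in cells, was at 842, 658 and 874 on its brighter probe set. The siRNA1 array was the low one, 1.28-fold below the control, and siRNA2 was 1.04-fold above it. A second PRMT1 probe set lay around the floor, at 11.5, 11.5 and 9.45.

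PRMT2, a weakly active enzyme with an SH3 domain, had 7 probe sets, and they did not give a single picture. The brightest was at 109, 192 and 155, which is 1.76-fold and 1.43-fold higher. Another was at 47.9, 90.1 and 58.2, or 1.88-fold and 1.21-fold higher. On both of these the siRNA1 array was the highest of the 3. They carry the suffixes _x_at and _s_at, which mark probes that can also match other transcripts. The other two above the floor, without a suffix, were at 92.9, 92.9 and 109, and at 32.8, 31.8 and 36.9. There siRNA1 was level with or just below the control, and siRNA2 was the highest. Over these 4 probe sets the log2 ratio ran from -0.04 to 0.91 with siRNA1 and from 0.17 to 0.51 with siRNA2. The remaining 3 lay below or just above the floor, with a highest value of 11.5.

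PRMT3, a cytosolic enzyme that methylates a protein of the small ribosomal subunit, was at 153, 195 and 225. Both siRNA arrays lay above the control, by 1.27-fold and 1.47-fold, log2 ratios of 0.35 and 0.55. These were smaller than the 95th percentile of differences between probe sets of a gene, which does not measure the error of a ratio to control. With siRNA1 the PRMT2 ratios of 0.82 and 0.91, on its _x_at and _s_at probe sets, were above that percentile (0.79). CARM1, a coactivator of nuclear receptors that methylates histone H3 and splicing factors, was at 70.6, 71.0 and 69.2. Its 3 values were within 1.03-fold of each other.

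The type II enzymes were also near the control. PRMT5, the main source of symmetric dimethylarginine, had 3 probe sets, at 514, 511 and 533, at 346, 354 and 354, and at 269, 269 and 272. All 3 probe sets stayed within 1.04-fold of the control with either siRNA. PRMT9, which methylates the splicing factor SF3B2, was at 33.9, 36.9 and 40.5, or 1.09-fold and 1.20-fold higher. PRMT7, the type III enzyme, was at 57.6 in the control and 49.9 with each siRNA, 1.16-fold lower. It was the only member lower with both siRNAs, where 23.7% of measured genes were, although after median-centring of the arrays PRMT1, PRMT5 and CARM1 also lay below the control with both, after quantile normalisation CARM1 did, and by the median over its probe sets PRMT1 did (-0.18 and -0.04).

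**Figure D2:**
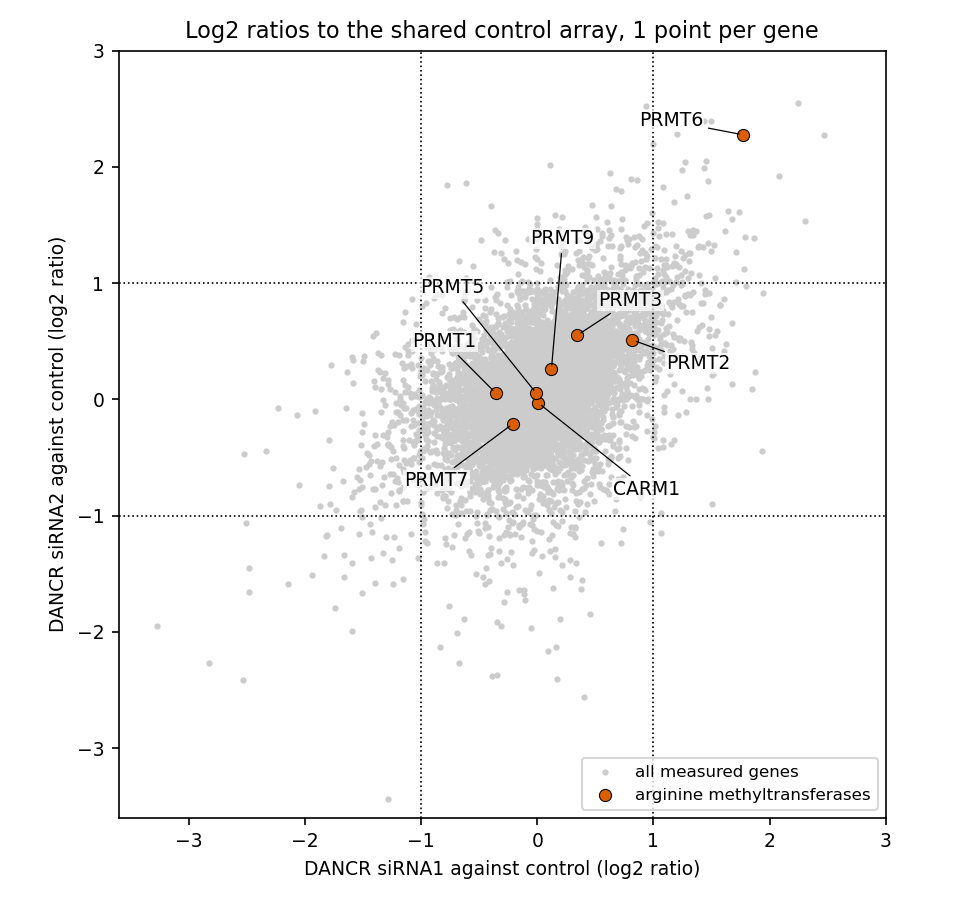
Log2 ratio to control with DANCR siRNA1 (horizontal axis) and DANCR siRNA2 (vertical axis) for all 12436 measured genes (grey) and the 8 arginine methyltransferases (orange), with dotted lines at 2-fold. PRMT6 lies at 1.77 and 2.28, and the other members lie inside the dotted lines. Both axes share the control array, which by itself makes the cloud lean along the diagonal.

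As a family, 4 of 8 members (PRMT2, PRMT3, PRMT6 and PRMT9) were higher with both siRNAs by any amount, where 29.2% of all measured genes were. For PRMT2 the siRNA1 value depends on the probe sets used: the median over all 7, of which 2 lay below the floor on all arrays and so had a ratio of 0, was 0.00 with siRNA1 and 0.17 with siRNA2, and the median over the 4 above the floor on all arrays was 0.41 and 0.26. The median log2 ratio of the 8 was 0.07 with siRNA1 and 0.16 with siRNA2, and without PRMT6 it was 0.01 and 0.05. Over all measured genes both medians were 0.00. At a lower threshold of 1.5-fold, 1 of 8 members, again PRMT6, was higher with both siRNAs, where 3.50% of all genes were, and PRMT2 passed it with siRNA1, as 7.14% did. The members within 1.5-fold of the control with both siRNAs numbered 6 of 8, where 79.0% of all genes were.

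PRMT8, the brain-enriched member that the family list leaves out, was at 10.2, 10.5 and 10.2 on its brighter probe set, no higher than the floor on any array. FBXO11, a ubiquitin ligase subunit that once carried the name PRMT9 and is a separate gene in the annotation, was at 204, 179 and 142.

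The 5 genes whose pair of log2 ratios lay nearest to that of PRMT6, over 3 arrays and among 11887 other genes above the floor on all of them, were PCDH10, H2BC5, SEMA3A, LINC01003 and ZNF227. Their distances, the straight-line distance in the plane of both log2 ratios, ran from 0.30 to 0.47. The protocadherin PCDH10 was at 41.4, 117 and 218, and the histone gene H2BC5 at 58.0, 157 and 306. The guidance factor SEMA3A was at 29.8, 81.5 and 124, and LINC01003 at 21.0, 56.7 and 83.5. All 4 shared with PRMT6 the order of control, then siRNA1, then siRNA2, which their choice by nearness to its ratios favours. ZNF227, a zinc finger gene, was at 20.3, 85.5 and 76.9, with siRNA1 the higher. A second H2BC5 probe set gave log2 ratios of 0.77 and 1.55, a second one of SEMA3A 0.43 and 0.63, and a second one of ZNF227 1.31 and 0.92. The other PCDH10 probe sets, and a further one of SEMA3A, were no higher than the floor on any array. LINC01003 has 1 probe set, with the suffix _s_at, and the H2BC5 probe sets carry _x_at.

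Of the protein-coding genes that follow PRMT6 on its chromosome, NTNG1 and VAV3 were below the floor on all arrays. The next, SLC25A24, a mitochondrial carrier, was at 245, 284 and 176. Its log2 ratios of 0.22 and -0.48 had opposite signs.

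Genes tied to the enzymes were then described in 10 lists with 94 genes, of which 79 were measured. With both siRNAs 1 of the 79 was at least 2-fold higher, with either siRNA 2 were, and with either none was 2-fold lower. Over all measured genes 3.30% were 2-fold higher with either siRNA.

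Partners and inhibitors of the enzymes had 6 of 9 members measured, and none was 2-fold from the control. The 9 include PRMT8, itself an arginine methyltransferase, which was not measured. RIOK1, an adaptor that brings substrates to PRMT5, was at 227, 389 and 366, log2 ratios of 0.77 and 0.69. The siRNA arrays were both above the control and close to each other. CLNS1A, the adaptor for spliceosomal Sm proteins, was at 920, 1039 and 1067, and WDR77, the constant partner of PRMT5, at 316, 315 and 327. BTG1, which binds PRMT1, was at 135, 116 and 86.2, and its second probe set gave -0.42 and -0.83. The list's median was 0.08 with siRNA1 and 0.05 with siRNA2.

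The proteins that bind methylated arginine had medians of 0.21 and 0.08 over 5 of 6 listed genes. All 5 were higher with siRNA1 and 3 of 5 with siRNA2, where 42.3% and 45.0% of all measured genes were. SND1, a Tudor-domain protein, was at 98.0, 108 and 133, and SMNDC1, a splicing factor, at 451, 513 and 549. SPIN1, a histone reader, was at 487, 563 and 513, and its second probe set gave log2 ratios of 0.11 and 0.00. PHF19 (0.55 and -0.33) and TDRD3 (0.36 and -0.22) were the readers lower with siRNA2.

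No measured substrate of PRMT1 or PRMT5 was 2-fold from the control on the probe set standing for its gene. The 8 measured PRMT1 substrates had medians of 0.02 and -0.01, with KHDRBS1 at 0.13 and 0.18, HNRNPA2B1 at -0.11 and -0.11, and G3BP1 at 0.05 and 0.03. HNRNPA1 was at 0.31 and -0.48, of opposite sign. Dimmer HNRNPA2B1 probe sets gave -0.25 and -0.56, -0.30 and -0.16, and 0.00 and -0.01. A further G3BP1 probe set gave -0.85 with siRNA1. The 5 PRMT5 substrates had medians of 0.00 and -0.06. Among them LSM4, an RNA-binding ring protein, had log2 ratios of 0.54 and 0.33, SNRPD3 had -0.10 and -0.06 and SNRPB had -0.07 and -0.22, while the other SNRPB probe set gave 0.19 with siRNA1.

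The substrates of CARM1, PRMT3 and PRMT9 had medians of 0.00 and 0.23 over 7 of 10 listed genes. SMARCC1, a chromatin remodelling subunit methylated by CARM1, was at 326, 487 and 511. Its 4 probe sets gave log2 ratios of 0.44 to 0.67 with siRNA1 and 0.62 to 0.72 with siRNA2, so each of them was higher on both siRNA arrays. SF3B2 had 0.36 and 0.17, and MED12 had -0.70 and 0.58, of opposite sign. CREBBP, an acetyltransferase, had 0.21 and 0.29, and its second probe set gave -0.21 and -0.09.

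For PRMT6 itself, the listed substrates were HMGA1 and POLB. HMGA1, an architectural DNA-binding protein, was at 672, 442 and 451, log2 ratios of -0.61 and -0.58, and its second probe set gave -0.27 and -0.35. POLB, a repair polymerase, had -0.32 and 0.11. Of the genes that PRMT6 is reported to repress, CDKN1A, the inhibitor p21, was at 363, 206 and 224, and CDKN1B, the inhibitor p27, at 463, 333 and 461. Both were lower with siRNA1, and CDKN1B was level with the control with siRNA2. THBS1, the secreted protein thrombospondin, lay below the floor in the control and with siRNA1 and was at 29.1 with siRNA2, at least 2.76-fold higher than the control, but the highest value of its other 6 probe sets on any array was 11.0.

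Genes that supply the methyl donor and clear its product lay on both sides of the control. The list's medians were -0.08 and 0.00 over 10 of 11 genes, with 3 higher and 4 lower with both siRNAs (29.2% and 23.7% of all measured genes), and none was 2-fold from the control. MAT2A, which makes S-adenosylmethionine, had an identical deposited value of 1298 on all 3 arrays, and its regulator MAT2B was at 638, 829 and 789. AHCY, which clears the product, was at 685, 799 and 795. MTR, methionine synthase, was at 285, 208 and 182, with its second probe set at -0.15 and -0.50, and its reductase MTRR was at 500, 382 and 395. MTAP, which recycles a by-product that inhibits PRMT5 when it builds up, was at 14.9 on all 3 arrays, just above the floor.

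Enzymes that remove methylarginine or citrullinate arginine had 4 of 7 genes measured, with medians of 0.00 and -0.10. DDAH1, which degrades free asymmetric dimethylarginine, was at 818, 1215 and 1059, log2 ratios of 0.57 and 0.37. Its second probe set, at 24.9 in the control, gave 0.18 and -0.25. DDAH2 was at 28.0 in the control and 25.9 with each siRNA, and PADI1, a peptidylarginine deiminase, at 46.2, 40.5 and 39.5.

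The list of other protein methyltransferases, mostly lysine enzymes but holding the ubiquitin ligase subunit FBXO11, gave a comparison with 29 of 30 genes measured. Their medians were 0.00 with both siRNAs. With both, 8 of 29 were higher and 9 of 29, FBXO11 included, were lower, where 29.2% and 23.7% of all measured genes were. SETD7, a lysine methyltransferase, was the only one at least 2-fold higher with both, at 88.5, 201 and 208, or 2.27-fold and 2.35-fold. That is 1 of 29 at a threshold that 0.716% of all measured genes passed. SETDB1 was at 42.2, 68.6 and 59.2 and EHMT1 at 72.9, 112 and 97.9, both writers of methylated histone lysine linked to silencing. A dimmer SETDB1 probe set gave log2 ratios of 0.62 and 0.04. The dimmer ones of EHMT1 gave 0.32 and 0.00, and 0.12 and 0.00. EZH2, the Polycomb enzyme, was at 262, 196 and 146, the lowest with siRNA2.

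**Figure D3:**
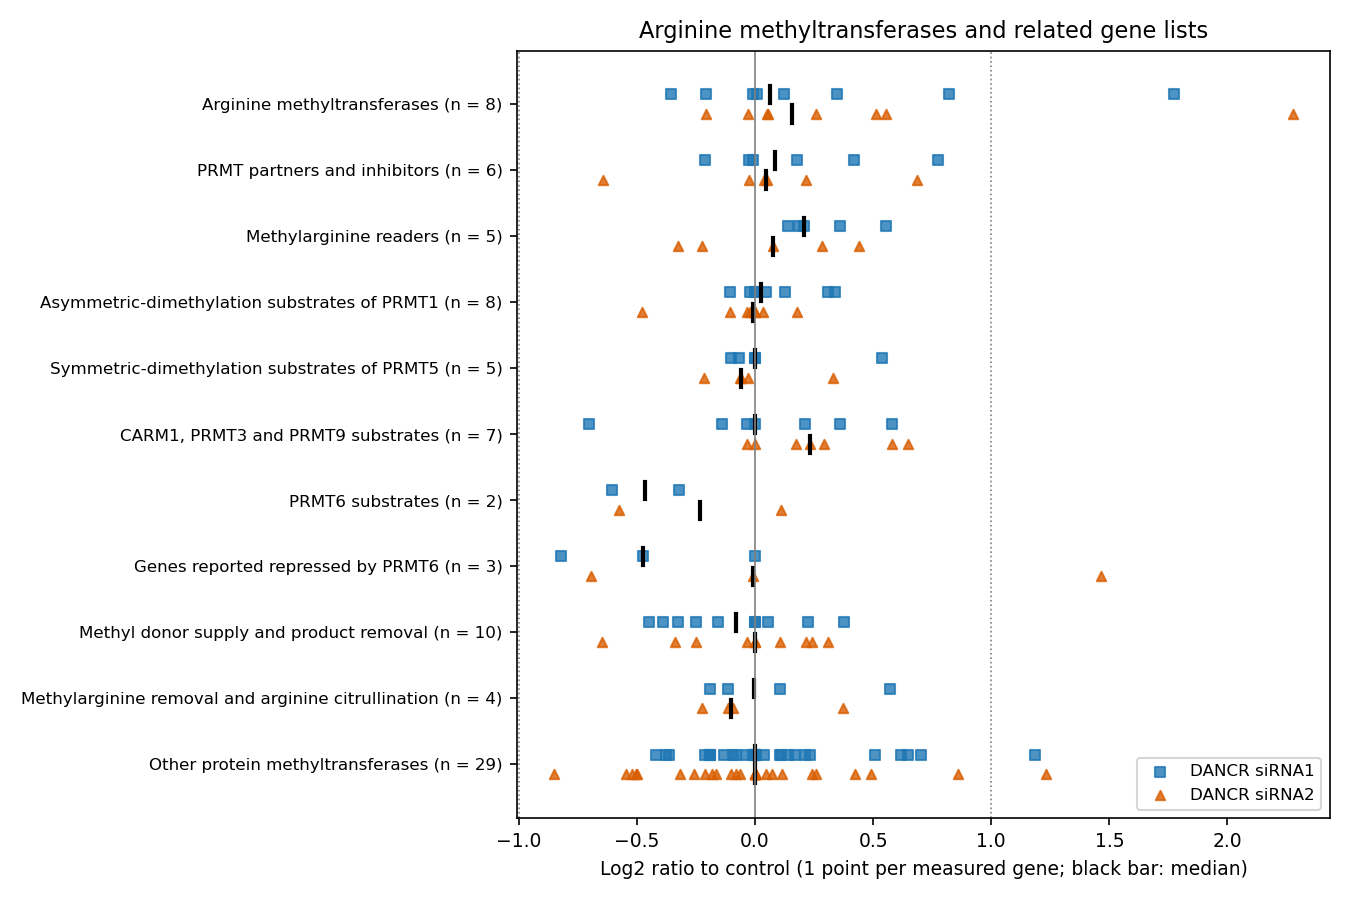
Log2 ratio to control (horizontal axis) for each measured gene of the arginine methyltransferases and of the 10 related lists, with DANCR siRNA1 as blue squares, DANCR siRNA2 as orange triangles and the list median as a black bar. The points past the dotted line at 1 are PRMT6 with both siRNAs, SETD7 with both, and THBS1 with siRNA2.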

How the data were processed

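The value table deposited by the authors held an intensity, not log-transformed, for each probe set on each array, which they had brought to a common scale by a method not given in the sources used here. The submitters' processing notes name GCOS 1.4. In 32.1% of the 54675 probe sets the value was the same on all 3 arrays (relative tolerance 1e-09), so some ratios are exactly 0. Probe sets were named by the array's annotation, in which 41097 name 1 gene, 1801 several and 11777 none. Only the first class was used, without Affymetrix controls. Values under the 50th percentile were raised to it, and the probe set with the highest mean stood for its gene, while every probe set of the members was kept. A difference was counted from 2-fold. No p-value was computed, since each group had 1 array, and the number of arrays limits precision. The members, lists and rules were chosen with earlier results of these data known. Genes named were the 8 members, DANCR, related genes at 2-fold with either siRNA, up to 3 more per list with the largest smaller ratio in 1 direction, and the 5 nearest to PRMT6. WDR77, POLB, MAT2A, AHCY, MTAP, PRMT8, FBXO11, HNRNPA1, MED12, PHF19, TDRD3 and the neighbours of PRMT6 were added after their values were seen. Of the cell marker lists, every gene with a single-gene probe set was named. Alternatives changed the floor, the scaling, the probe set and the threshold. Promoter sequences and gene order came from RefSeq (GRCh38.p14), which held all 8 members. Python 3.11.15, numpy 2.4.6, pandas 2.3.3 and matplotlib 3.10.9 were used.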

Additional observations from a re-analysis of the deposited data

How the results depend on the processing

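Under 9 alternatives, 66 of 70 recomputed values kept their direction and their side of 2-fold, or, for medians, moved by no more than 0.1 (log2), or, for counts, stayed within 1.5 times. Some of these values could not change. PRMT6 has 1 probe set, above the floor and without an _s_at or _x_at suffix. A lower floor, no floor and either choice of probe set therefore left its ratios as they were. Over all settings PRMT6 ran from 1.43 to 1.77 (log2) with siRNA1 and from 1.94 to 2.28 with siRNA2. The lowest values came with the floor at the 70th percentile, which lies above its control intensity, so they are bounds. PRMT6 was the 1 member called higher with both siRNAs at 1.5-fold, 2-fold and 3-fold. At 1.5-fold the count of member probe sets differing with either siRNA went from 1 to 3, with 2 of PRMT2. The count of all genes higher with both was 31 by the median over probe sets, 435 at 1.5-fold and 6 at 3-fold, against 89. Without _s_at and _x_at probe sets CARM1 had none, PRMT2 was at 0.00 and 0.24 and PRMT1, left with the probe set near the floor, at 0.00 and -0.13. By the median over probe sets PRMT1 was at -0.18 and -0.04. Median-centring turned the small siRNA2 values of PRMT1 (to -0.03) and PRMT5 (to -0.03), and the siRNA1 value of CARM1 (to -0.01, or -0.03 with quantile normalisation). No paired analysis was possible because each group had 1 array.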
